A study of Homo sapiens with 6 samples.

Results

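The 10 genes described here are the mouse genes of the CD47-SIRPa axis and of efferocytosis, the clearance of dying cells by phagocytes: Cd47, Sirpa, Mertk, Axl, Tyro3, Gas6, Pros1, Mfge8, Calr and Lrp1. They were picked by Ensembl ID from the 77134 gene rows of a table of estimated RNA-seq counts, without use of their values, and 10 of 10 were found. HIF1A-AS3 overexpression tumours grew from A549 cells, a human lung adenocarcinoma line, made stable with the lentivirus pLV-CMV-HIF1A-AS3-EGFP-Neo (3 libraries), and vector control tumours from A549 cells made stable with pLV-CMV-EGFP-Neo (3 libraries). Both lines thus carried EGFP and the Neo cassette, and HIF1A-AS3, a human antisense RNA named after HIF1A, was driven by the CMV promoter in the tumour cells and not in the host. In both groups 5000000 cells were placed under the skin of BALB/c nude mice, a strain short of T cells that keeps macrophages and other innate cells. The labels give neither the age of the mice nor how many clones each line held.

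CD47 is a surface protein found on most cells that binds SIRPa on macrophages and passes them an inhibitory signal against engulfment. In efferocytosis, bridging proteins in the fluid around cells (Gas6, protein S and MFG-E8) attach to phosphatidylserine exposed on a dying cell and link it to a phagocyte. Gas6 does so through the receptors Tyro3, Axl and Mertk, together called TAM receptors, protein S through Tyro3 and Mertk, and MFG-E8 through integrins. Calreticulin, displayed on a dying or stressed cell, is read by the receptor LRP1 and opposes the CD47 signal. In tumours these genes are studied as regulators of how macrophages treat cancer cells.

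All rows of the table are mouse genes, although the labels name the organism of the samples as Homo sapiens. The values are read here as RNA of host cells, but human reads that resemble a mouse gene may be counted in any of them, and their share is unknown. The human CD47 and CALR of the A549 cells, which host macrophages would meet, were not analysed here, and neither was HIF1A-AS3, so the labels were not checked against the overexpressed RNA. The rows pair no ID with a symbol, so markers of the host cell types, of macrophages in particular, were not read, and whether the members moved with the share of any cell type was not tested. In such bulk RNA, fewer cells of a type and less RNA per cell cannot be told apart. The labels do not state whether each tumour came from its own mouse. The p-values therefore reflect only the spread between these 6 tumours, and how much of it is technical is unknown. Tumours of a group share a stable line, so HIF1A-AS3 overexpression cannot be told apart from other differences between the lines.

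Totals were 4272525 to 4769157 estimated counts in overexpression and 4167784 to 4262778 in control libraries. Values are given as CPM, a gene's counts relative to the library total after TMM scaling, a correction for libraries in which a few genes take many counts. They compare a gene between tumours and not one gene with another, because gene length was not used. Overexpression replicate 1 stood apart in its TMM factor, which was 0.742, against 1.02 to 1.10 in the other 5 libraries. Its log2 CPM had a Pearson r across genes of 0.894 to 0.924 with them. For overexpression replicate 3 the r was 0.916 to 0.931 with the controls and overexpression replicate 2, which overlaps the range of replicate 1. Overexpression replicate 2 had an r of 0.960 with control replicate 3, against 0.900 and 0.916 with the other overexpression libraries. Genes are not independent replicates, so these r values only describe the libraries. No pair of libraries was a duplicate, the closest showing 3.89 times the variance that sampling gives.

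The comparison of HIF1A-AS3 overexpression with vector control tumours asked whether raising this RNA in the cancer cells went with a change of the host's engulfment genes. Of the 10 members, 8 had enough counts to be tested, and 0 of these 8 passed the threshold of an adjusted p below 0.05 (edgeR quasi-likelihood test, Benjamini-Hochberg over 12637 genes). DESeq2 and limma-voom also called 0 of them, and 0 had an unadjusted p below 0.05 in edgeR. The background was low as well, with 2 of 12637 genes, or 0.0158%, past the adjusted threshold and 6.29% at an unadjusted p below 0.05. Their log2 fold changes ran from -0.08 to 0.31 with a median of 0.02, beside a median of 0.01 over all genes tested. They were above 0 in 5 of 8 members, against 50.6% of all genes, and in 1 of 8 with library totals in place of TMM, which lowered the median of all genes to -0.21. The values of the 2 groups overlapped in 8 of 8 tested members, where groups did not overlap in 13.1% of all genes. Mertk and Tyro3 fell under the filter on low counts and are described by their counts.

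**Figure D1:**
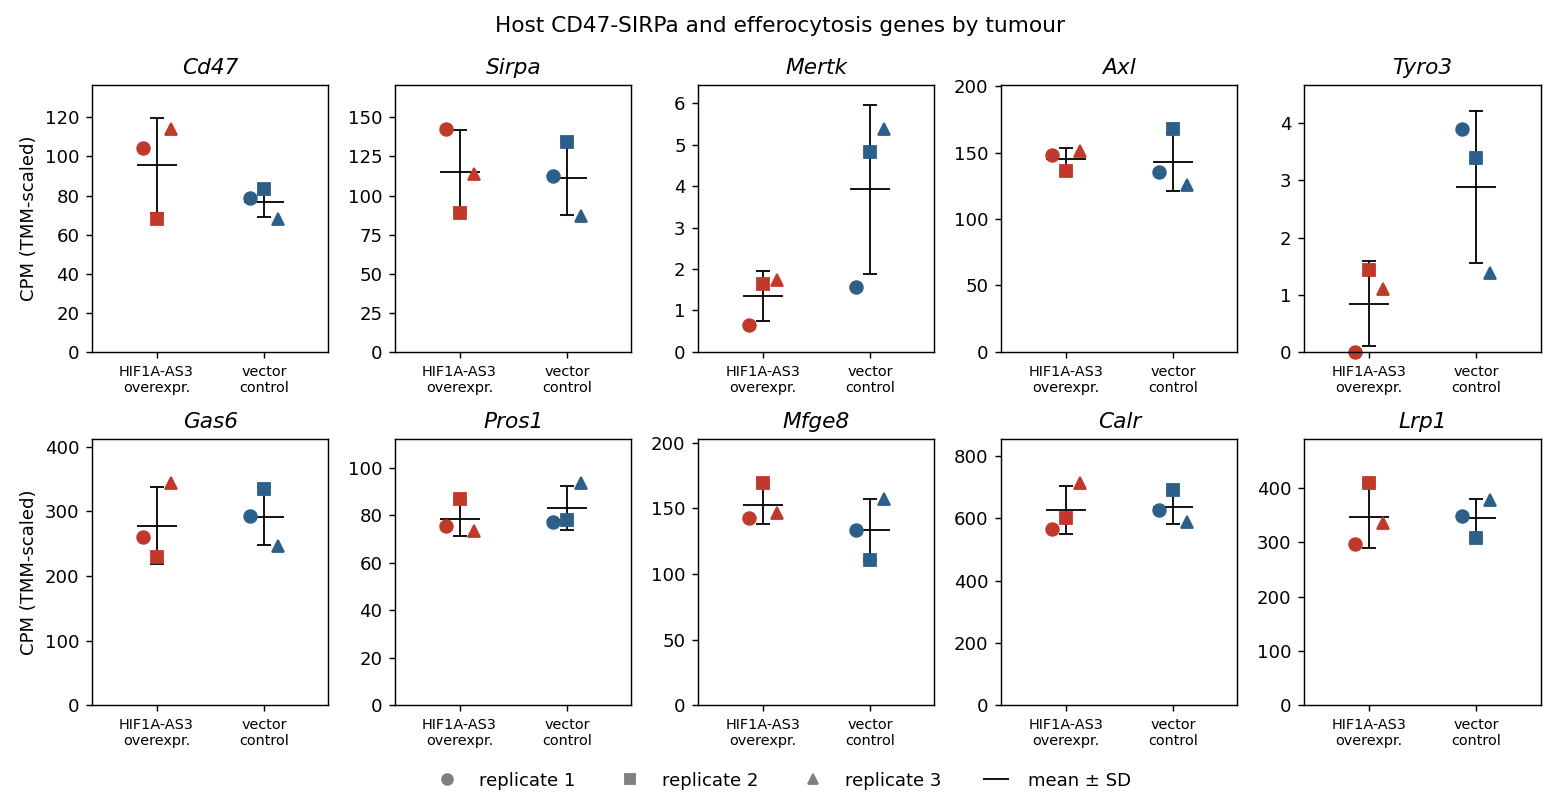
Level of each of the 10 genes in TMM-scaled CPM (vertical axis, starting at 0, its scale differing between panels) in the 3 HIF1A-AS3 overexpression libraries (red, left) and the 3 vector control libraries (blue, right); marker shapes give the replicate number, and black bars the mean ± SD. The groups overlap in every panel, and for Mertk and Tyro3, which rest on few counts, the highest library stands at 5.37 and 3.89 CPM.

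Cd47 (ENSMUSG00000055447.20), the inhibitory signal that host cells display, measured 104, 68.0 and 114 CPM in overexpression replicates 1, 2 and 3, against 79.0, 83.2 and 68.1 CPM in control replicates 1, 2 and 3. Overexpression replicates 1 and 3 lay above all controls, and replicate 2 lay just below the lowest control. Overexpression replicate 1 had 367 of 4769157 counts on Cd47, against 365 of 4236693 and 368 of 4167784 in control replicates 1 and 2. The place of that library above all controls thus rests on its TMM factor of 0.742. The mean was 95.4 ± 24.2 CPM in overexpression and 76.8 ± 7.79 CPM in control tumours (SD, n = 3 each). The log2 fold change was 0.31 (standard error 0.22), with an adjusted p of 0.75 (edgeR), and its 95% interval, not adjusted for the number of genes, reached from 0.867-fold to 1.78-fold. It was the largest of the 8 tested members in this fit, and its size rested on single libraries. Without overexpression replicate 2 the log2 fold change was 0.51, and edgeR gave an unadjusted p of 0.018 and an adjusted p of 0.17. In that fit 2659 of 12999 genes had an unadjusted p below 0.05 (edgeR), so Cd47 was not singled out. Without overexpression replicate 3 the log2 fold change of Cd47 was 0.16. With library totals in place of TMM it was 0.07, where the median of all genes was -0.21.

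Sirpa (ENSMUSG00000037902.19), the macrophage receptor for CD47, measured 142, 89.1 and 114 CPM in overexpression replicates 1, 2 and 3, against 113, 134 and 87.2 CPM in control replicates 1, 2 and 3. Each group held a high, a middle and a low library, and the ranges nearly coincided. The means were 115 ± 26.6 CPM in overexpression and 111 ± 23.6 CPM in control tumours (SD, n = 3 each), and the log2 fold change was 0.05 (standard error 0.24), with an adjusted p of 0.97 (edgeR). Mouse Sirpa has close relatives, the Sirpb1 genes, and reads shared with them may be split between rows by the estimate. Its estimates were whole numbers, to within 0.001, in 4 of 6 libraries.

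The ratio of Cd47 to Sirpa counts within a library does not depend on the scaling between libraries. It was 0.733, 0.763 and 0.998 in overexpression replicates 1, 2 and 3, against 0.701, 0.619 and 0.781 in control replicates 1, 2 and 3. Overexpression replicate 3 stood above the other 5 libraries, and the groups overlapped. On the log2 scale the ratio averaged -0.28 ± 0.24 in overexpression and -0.52 ± 0.17 in control tumours (SD, n = 3 each), a difference of 0.24.

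Among the TAM receptors, Axl (ENSMUSG00000002602.17), a receptor with Gas6 as its ligand, was well covered and stood at 148, 136 and 151 CPM in overexpression replicates 1, 2 and 3, against 136, 168 and 126 CPM in control replicates 1, 2 and 3. The overexpression values lay inside the span of the controls. The means were 145 ± 8.08 CPM and 143 ± 21.9 CPM (SD, n = 3 overexpression and 3 control libraries), with a log2 fold change of 0.02 (standard error 0.17) and an adjusted p of 0.98 (edgeR). The 95% interval was 0.768-fold to 1.34-fold.

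Mertk (ENSMUSG00000014361.6), the TAM receptor best known for clearance of dying cells by macrophages, had few counts, at most 25 in a library. Estimated counts were 2.28, 7.81 and 7.52 in overexpression replicates 1, 2 and 3, against 7.28, 21.3 and 25 in control replicates 1, 2 and 3. In CPM these were 0.649, 1.65 and 1.73 in overexpression, against 1.57, 4.82 and 5.37 in control libraries. Control replicates 2 and 3 stood above all overexpression libraries, and control replicate 1 lay within their range. A library with 0 counts would allow up to 3, or 0.632 to 0.852 CPM here, a limit that covers counting error only.

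Tyro3 (ENSMUSG00000027298.18), the TAM receptor best known from the nervous system, also had few counts. Its estimated counts were 0, 6.79 and 4.80 in overexpression replicates 1, 2 and 3, against 18, 15.0 and 6.44 in control replicates 1, 2 and 3. In CPM the levels were 0, 1.43 and 1.10 in overexpression, against 3.89, 3.40 and 1.38 in control libraries. The lowest control lay just under the highest overexpression library, so the groups overlapped. The 0 in overexpression replicate 1 allows a level of up to 0.852 CPM.

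With the filter on low counts removed, the same edgeR test covered 25492 genes and gave both receptors a negative log2 fold change. It was -1.45 with a standard error of 0.60 for Mertk (unadjusted p = 0.022) and -1.61 with a standard error of 0.75 for Tyro3 (unadjusted p = 0.041), with an adjusted p of 0.73 for both in edgeR. In that fit 5.67% of genes had an unadjusted p below 0.05 and 0.0549% passed the adjusted threshold. DESeq2 on all rows gave unadjusted p values of 0.069 for Mertk and 0.10 for Tyro3, with an adjusted p of 0.9997 for both. Over 12 alternatives without the filter the log2 fold change stayed below 0, at -1.84 to -1.13 for Mertk and -2.17 to -1.11 for Tyro3, with adjusted p values of 0.15 to 0.9997 and 0.12 to 0.9997 in edgeR or DESeq2. Overexpression replicate 1, the library lowest in both genes, also had the fewest rows detected at 1 count or more, 17356, where the others had 18753 to 19010. Without it the log2 fold changes were -1.13 for Mertk and -1.11 for Tyro3, with an adjusted p of 0.88 for both in edgeR. The unadjusted p was below 0.05 in 8 of the 12 alternatives for Mertk and in 6 of 12 for Tyro3, all of them edgeR fits. The share of all genes below 0.05 in each of these edgeR fits is not given here, so the tally singles out neither gene. With the filter, 327 of 13014 genes were below 0.05 without control replicate 1, and 2659 of 12999 without overexpression replicate 2 (edgeR, unadjusted p). With the filter kept, each gene passed it in some edgeR fits with 1 library left out. For Mertk the unadjusted p was then 0.017 without control replicate 1, and 0.12, 0.073 and 0.068 without overexpression replicates 1, 2 and 3. For Tyro3 it was 0.063 without control replicate 3, and 0.13, 0.075 and 0.14 without overexpression replicates 1, 2 and 3. All these fits reuse the same libraries and are not independent. Neither gene passed the adjusted threshold in any of them, which does not show that its levels were equal.

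The ratio of Mertk to Axl counts within a library was 0.00438, 0.0121 and 0.0114 in overexpression replicates 1, 2 and 3, against 0.0116, 0.0288 and 0.0428 in control replicates 1, 2 and 3. Control replicates 2 and 3 were above all overexpression libraries, and control replicate 1 was not. On the log2 scale the means were -6.88 ± 0.83 in overexpression and -5.37 ± 0.96 in control tumours (SD, n = 3 each), a difference of -1.52 that rests on the few Mertk counts given above.

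**Figure D2:**
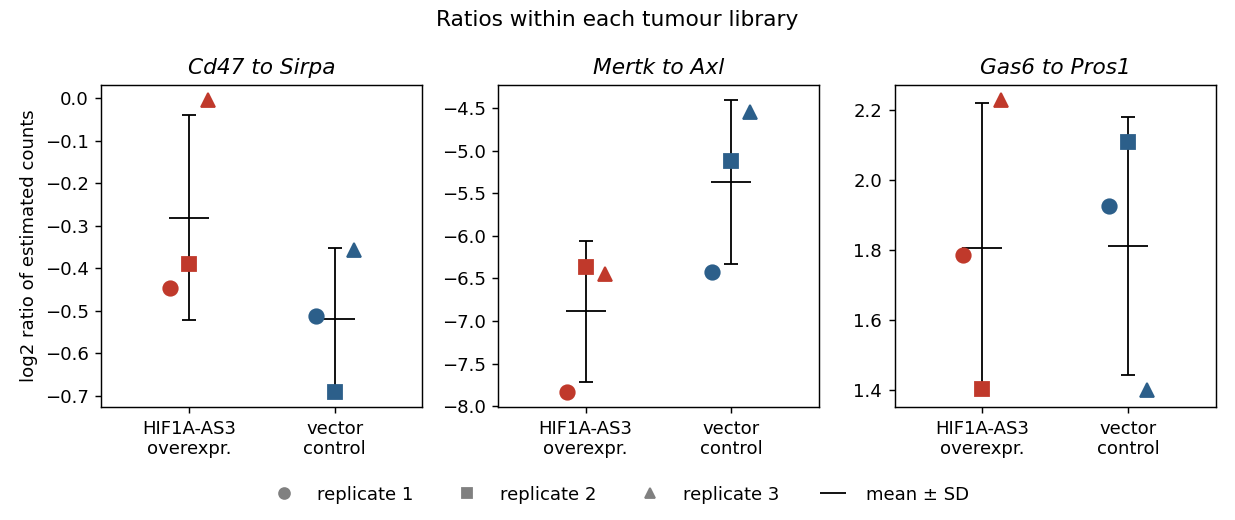
Log2 ratio of estimated counts of 2 genes within each library (vertical axis, its scale differing between panels and not starting at 0), for HIF1A-AS3 overexpression (red, left) and vector control tumours (blue, right), with the mean ± SD in black and marker shapes for replicate numbers. In each panel the groups overlap, and for Gas6 to Pros1 both group means are 1.81, with SDs of 0.41 and 0.37.

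Of the bridging proteins, Gas6 (ENSMUSG00000031451.7), the ligand of the TAM receptors, measured 260, 229 and 344 CPM in overexpression replicates 1, 2 and 3, against 293, 335 and 247 CPM in control replicates 1, 2 and 3. Overexpression libraries were both the highest and the lowest of the 6. The means were 278 ± 59.2 CPM and 292 ± 44.2 CPM (SD, n = 3 overexpression and 3 control libraries), with a log2 fold change of -0.07 (standard error 0.22) and an adjusted p of 0.94 (edgeR). Pros1 (ENSMUSG00000022912.9), which encodes protein S, a ligand of Tyro3 and Mertk and an anticoagulant, measured 75.6, 86.6 and 73.4 CPM in overexpression replicates 1, 2 and 3, against 77.2, 77.8 and 93.5 CPM in control replicates 1, 2 and 3. Its log2 fold change was -0.08 (standard error 0.17), with an adjusted p of 0.91 (edgeR). For Pros1 1 library of each group, overexpression replicate 2 and control replicate 3, stood above the others.

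Mfge8 (ENSMUSG00000030605.16), the bridge to integrins, measured 143, 169 and 146 CPM in overexpression replicates 1, 2 and 3, against 134, 111 and 157 CPM in control replicates 1, 2 and 3. Control replicate 3 exceeded overexpression replicates 1 and 3, and the other 2 controls were the lowest libraries. The means were 153 ± 14.5 CPM in overexpression and 134 ± 23.1 CPM in control tumours (SD, n = 3 each). The log2 fold change was 0.19 (standard error 0.19), with an adjusted p of 0.80 (edgeR), and it was -0.03 with library totals in place of TMM.

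The ratio of Gas6 to Pros1 counts was 3.45, 2.65 and 4.69 in overexpression replicates 1, 2 and 3, against 3.80, 4.31 and 2.64 in control replicates 1, 2 and 3. The log2 ratio averaged 1.81 ± 0.41 in overexpression and 1.81 ± 0.37 in control tumours (SD, n = 3 each). The ratio of these transcripts varied between tumours of 1 group, while the means of the groups differed by -0.0048.

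Calr (ENSMUSG00000003814.9), the gene of calreticulin, which is mostly a chaperone of the endoplasmic reticulum and is displayed on dying cells, measured 566, 600 and 712 CPM in overexpression replicates 1, 2 and 3, against 625, 690 and 588 CPM in control replicates 1, 2 and 3. The highest and the lowest library were both from overexpression tumours. The log2 fold change was -0.02 (standard error 0.20), with an adjusted p of 0.98 (edgeR), and the 95% interval was 0.713-fold to 1.37-fold. Lrp1 (ENSMUSG00000040249.16), a large endocytic receptor that reads calreticulin, measured 297, 409 and 335 CPM in overexpression replicates 1, 2 and 3, against 347, 307 and 378 CPM in control replicates 1, 2 and 3. Its log2 fold change was 0.01 (standard error 0.20), with an adjusted p of 0.99 (edgeR). Both genes had estimates that were not whole numbers in all 6 libraries, as arises when reads are shared between transcripts of several genes. Whether human reads of these genes were among them was not tested.

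**Figure D3:**
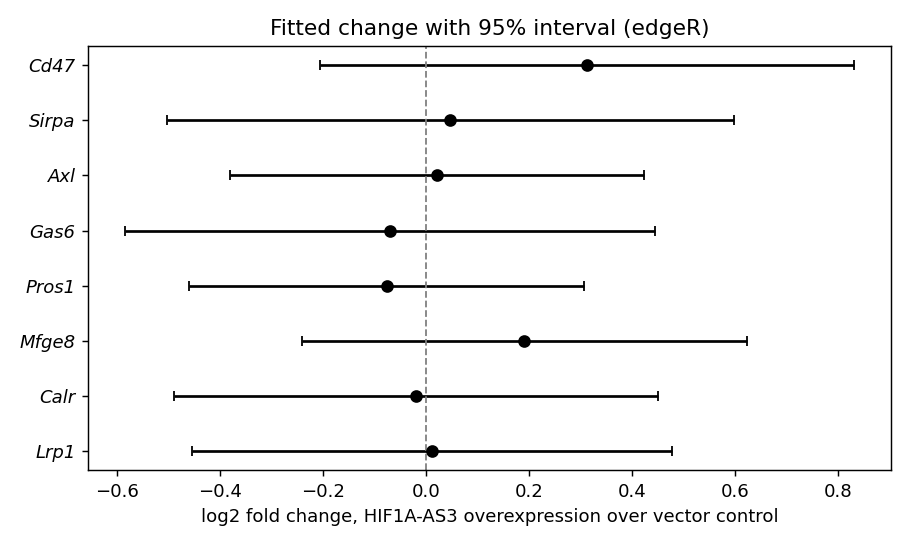
Log2 fold change of HIF1A-AS3 overexpression over vector control tumours (horizontal axis) for the 8 members tested, from the edgeR fit of 12637 genes; bars are 95% intervals for single genes, and the dashed line marks no change. Every interval spans 0, with Cd47 at 0.31 and Mfge8 at 0.19 the farthest from it.

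The intervals bound what these libraries allow for each gene. The upper ends were 1.78-fold for Cd47, 1.54-fold for Mfge8, 1.51-fold for Sirpa, 1.39-fold for Lrp1 and 1.24-fold for Pros1. The lower ends were 0.667-fold for Gas6, 0.706-fold for Sirpa and 0.727-fold for Pros1. The standard errors of the tested members had a median of 0.20, beside 0.28 over all genes tested. A p that misses the threshold does not show that the levels were equal, and changes inside these intervals remain compatible with the libraries. The intervals are for single genes and do not mark the size of change that the adjusted threshold would call.

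Most of the variation of these genes lay between tumours of the same group. The range of log2 CPM within the overexpression group exceeded the difference of the group means in 8 of 8 tested members, as in 90.3% of all genes. The range within the control group did so in 8 of 8 as well, against 66.8% of all genes. The difference between groups accounted for 25.2% of the sum of squares of log2 CPM for Cd47 and 27.1% for Mfge8. It accounted for 9.44% for Pros1, 3.38% for Gas6, 1.26% for Axl, 0.902% for Calr, 0.682% for Sirpa and 0.0089% for Lrp1. The median over the tested members was 2.32%, beside 18.3% over all genes tested. The SD of log2 CPM was larger among overexpression than control libraries in 5 of 8 members, namely Cd47, Sirpa, Gas6, Calr and Lrp1, against 76.4% of all genes. For Cd47 these SDs were 0.39 among overexpression and 0.15 among control libraries, and for Axl 0.08 among overexpression and 0.21 among control libraries.

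Several members lay on the same side of their means in 2 libraries, in a pattern noticed after the values were seen and given as a description only. The full order of the libraries differed between the tested members. Cd47, Sirpa, Axl, Gas6 and Calr were below their own means over the 6 libraries in overexpression replicate 2 and in control replicate 3. Pros1, Mfge8 and Lrp1 were above their means in the same 2 libraries, which were also the 2 highest for each of these 3 genes. Averaged over each set, the first 5 genes minus the last 3 gave log2 differences of 0.19, -0.42 and 0.24 in overexpression replicates 1, 2 and 3, against 0.02, 0.36 and -0.39 in control replicates 1, 2 and 3. The sets were formed by these signs, so the negative values in overexpression replicate 2 and control replicate 3 follow from the choice of genes. These are the 2 libraries that correlated most closely across groups, as given above, and the part of other genes in the pattern was not tested.

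**Figure D4:**
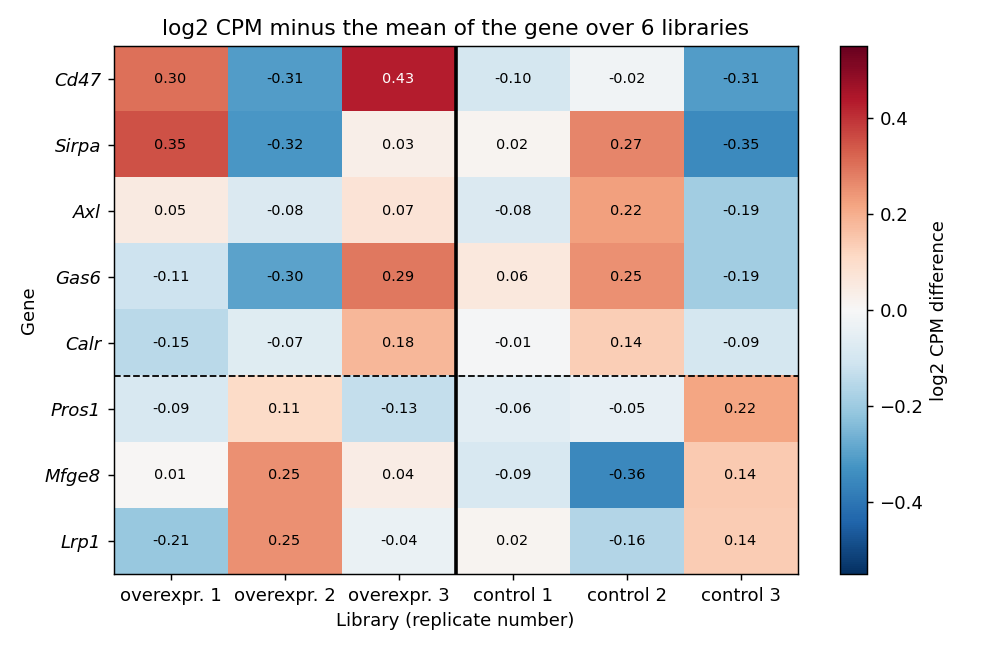
Log2 CPM of the 8 tested members minus each gene's mean over the 6 libraries (colour and printed value), with HIF1A-AS3 overexpression libraries left of the solid line and vector control libraries right of it; the dashed line parts the 5 genes from the 3 described in the text. Overexpression 2 and control 3 are negative in the upper 5 rows and positive in the lower 3, and control 2 has the opposite signs throughout except for Cd47, at -0.02.

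The pattern of Sirpa over the 6 libraries was compared with that of 4566 genes of similar level, within 4-fold of its mean CPM. The measure was the root mean square difference of log2 CPM deviations from the gene mean. The closest genes were ENSMUSG00000031586.18, at 0.064, and ENSMUSG00000027099.10, at 0.070, where the deviations of Sirpa itself had a root mean square of 0.27. Among the 7 other tested members the closest to Sirpa was Axl, at 0.18. The searches differed in size, so these distances cannot be set against each other. With 6 values per gene, close matches among 4566 genes may come from the search alone. Mertk had too few counts for this comparison.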

How the data were processed

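Total RNA of 6 subcutaneous A549 tumours gave 1 sequencing library each, per the labels' protocols. The authors deposited 1 table of estimated counts per gene with no normalization; its name points to salmon, a transcript quantifier. The submitters' processing notes name edgeR, DESeq2, featureCounts 2.0.6, HISAT2 2.2.1, Trimmomatic 0.39 and the build mm10 without roles. The salmon version and annotation release are, in the sources used here, not given. Columns were matched to tumours by name.

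Estimated counts were rounded and fitted in R 4.3.3 with edgeR 4.0.16 (filterByExpr, TMM, robust quasi-likelihood test, group only); 12637 genes holding 99.5% of counts were tested. Standard errors are the log2 fold change over the square root of F; log2 CPM used a prior count of 2. Alternatives used DESeq2 1.42.0, limma 3.58.1 (voom), other scalings and filters, a replicate block and each library left out. Across genes, same-numbered libraries' deviations from their group means correlated at -0.09, -0.34 and -0.10, so numbers were not treated as pairs. All 10 members are named. The rule that picked the members used none of their values, but members and lists were chosen with earlier results of these data known. Pathway and marker lists drawn up by symbol were not used, since 0 of 77134 IDs matched the name table used here.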

Additional observations from a re-analysis of the deposited data

How the results depend on the processing

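The number of members past the threshold was 0 in the edgeR fit and 0 under each of 16 alternatives, the replicate block included, and 0 to 0 with 1 library left out. The number of all genes past it, 2 (1 higher, 1 lower), was 29 with DESeq2 on all rows (8 higher, 21 lower), 28 with DESeq2 on the genes edgeR tested (7 higher, 21 lower), 7 with limma-voom (2 higher, 5 lower), 4 with library totals only (1 higher, 3 lower), 14 with no filter on low counts (5 higher, 9 lower), 0 with the replicate block (edgeR, with 414 at an unadjusted p below 0.05) and 0 to 14 with 1 library left out. It was 0 without control replicate 1 or overexpression replicate 3 (edgeR, with 327 and 947 at an unadjusted p below 0.05). It was 1 without overexpression replicate 1 and 14 without overexpression replicate 2 (edgeR, with 614 and 2659 at an unadjusted p below 0.05). The cause was not tested.

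Of 128 member log2 fold changes under an alternative, 19 changed sign, 14 of them with 1 library left out, at adjusted p values of 0.76 or more. With library totals only, which moved the median of all genes from 0.01 to -0.21, Sirpa was at -0.21, Axl at -0.21, Mfge8 at -0.028 and Lrp1 at -0.20; limma-voom put Lrp1 at -0.0021. With 1 library left out the log2 fold changes spanned 0.16 to 0.51 for Cd47, -0.16 to 0.21 for Sirpa, -0.062 to 0.154 for Axl, -0.26 to 0.054 for Gas6, -0.15 to 0.022 for Pros1, 0.075 to 0.32 for Mfge8, -0.13 to 0.049 for Calr and -0.12 to 0.087 for Lrp1. Of the 8 members tested with the filter, Cd47 kept its sign under each of its 16 alternatives and the other 7 did not. Under the replicate block 0 members changed sign, and their lowest adjusted p was 0.95. The alternatives for Mertk and Tyro3 without the filter, other than DESeq2, were chosen after seeing the data. Mertk and Tyro3 rest on 25 counts or fewer per library; how far depth and the spread between tumours each limit the comparisons was not tested.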
